A study of Mus musculus with 4 samples.

Results

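Prostanoids are lipid signals made from arachidonic acid. Phospholipases release the acid from membranes, a cyclooxygenase (Ptgs1 or Ptgs2) converts it to prostaglandin H2, and terminal synthases turn that intermediate into prostacyclin, prostaglandin E2, prostaglandin D2 or thromboxane, which act on G protein-coupled receptors of the same or neighbouring cells. Fibroblasts are known as producers of prostaglandin E2, and prostacyclin is best known from vessel walls and from the mesothelium that lines body cavities.

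The 10 genes described here are the cyclooxygenases Ptgs1 and Ptgs2, the prostacyclin synthase Ptgis, the prostaglandin E synthases Ptges, Ptges2 and Ptges3, the prostaglandin D synthase Ptgds, the thromboxane synthase Tbxas1, and the receptors Ptgir (prostacyclin) and Ptger4 (prostaglandin E2). They were chosen by gene name, after results of these arrays were known, and the choice used the ratio of DKO to its wild type for Ptgis and its pathway. They are 10 of 31829 gene names on the array and have 14 of its 39429 probes and 23 of its 43020 spots. Of the 10 genes, 7 were well above background on all 4 arrays, 1 (Ptgis) on 3 and 2 (Tbxas1 and Ptgir) on 2.

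The 4 arrays held Cy3-labelled RNA of mouse embryonic fibroblasts (MEFs), primary cells taken from mid-gestation embryos of C57BL/6J mice, cultured with serum and harvested untreated while growing logarithmically. The study asked how loss of the cyclins CycG1 (gene Ccng1) and CycG2 (gene Ccng2) alters these cells. There was 1 array each for G2KO (CycG2-/-), its wild type G2WT (CycG2+/+), DKO (CycG1-/- CycG2-/-) and its wild type G1G2WT (CycG1+/+ CycG2+/+), so every knockout is a germline deletion and each genotype is 1 MEF preparation. No ratio has a replicate check and no test between genotypes was possible. The errors below are technical.

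A level is the signal of a probe divided by the 75th percentile of all probes on its array, and log2 ratios are differences of log2 levels. Levels of different genes come from different probes and are not compared with each other. Ratios of at least 4-fold were counted. Where a probe was not well above background on 1 array of a pair, the ratio is a limit (at least). It was not given where the probe was dim on both, or where the dim side came out the higher.

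The targeted genes checked the labels in part. Ccng1 had a level of 1.66 on G1G2WT and was at background on DKO, at least 228-fold lower. In the other pair it had a level of 9.45 on G2WT and 1.98 on the array labelled G2KO, 4.78-fold lower. Ccng2 did not separate the arrays, with levels of 0.0910 on the array labelled G2KO, 0.104 on G2WT, 0.0619 on DKO and 0.0806 on G1G2WT, and whether its probe lies in the deleted part was not tested. Xist was detected only on G2WT, at 1.13, and the Y-linked genes Ddx3y and Eif2s3y were well above background on all arrays but that one. Genes measured on both arrays of a pair had log2 ratios with an SD of 0.572 for labelled G2KO over G1G2WT and of 1.04 for G1G2WT over G2WT. The study describes its G2KO MEFs as female and lists Xist and Sox2 as higher and Pdgfra as lower in them. Here Xist and Sox2 were detected only on G2WT, and the array labelled G2KO exceeded it at least 244-fold in Pdgfra. These directions go against the labels, and the labels of this pair may be exchanged, which was not tested. The array is therefore called "labelled G2KO" throughout, and an exchange would turn the sign of every ratio between it and G2WT.

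Ptgis, the enzyme that makes prostacyclin, was read by 1 probe at chr2:167028696-167028755 on the minus strand (mm9), which starts at base 1691 of its transcript. Labelling began from the poly(A) tail, so the end of each probe is given for the genes with the largest ratios, and for Ptges, whose probes differed. The capitals mark AATAAA or ATTAAA, the letters of the polyadenylation signal. The Ptgis probe has it in its last 30 bases and the Ptgs1 probe does not.

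Ptgis, last 30 bases: aagctAATAAAagctctgtatctcgctgtg

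Ptgs1, last 30 bases: ggagggaacagatggactcatctatgatct

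Of 39429 probes on the array, 10.6% hold AATAAA in their last 30 bases, 3.38% hold ATTAAA, and 13.7% hold either, read on the probe strand only.

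Ptgis had a level of 50.1 on DKO, 0.0183 on G1G2WT, 0.0138 on G2WT and 0.00827 on the array labelled G2KO, where it was dim. The DKO array stood far above the other 3, which lay near background. DKO exceeded G1G2WT by 11.42 ± 0.29 on the log2 scale (error of the pair of spots by the scanner software), a 2731-fold difference. With normexp background correction, which raises low signals such as the G1G2WT one, the ratio was 9.82. Among the 20005 genes measured on both arrays the 2731-fold was the largest in size, and it is given as a description because the gene was chosen for it. Genes dim on 1 array have only limits and may exceed it, and on their own signals 3 did (Aspn, Krt18 and Wt1), among them Krt18 with a limit of at least 2406-fold. Against G2WT, DKO was higher by 11.82. The ratio of labelled G2KO to G2WT had a limit of -0.74, lower by at least 1.68-fold, with signals of 18.5 and 22.0 near background on both arrays and a technical error of 0.43.

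**Figure D1:**
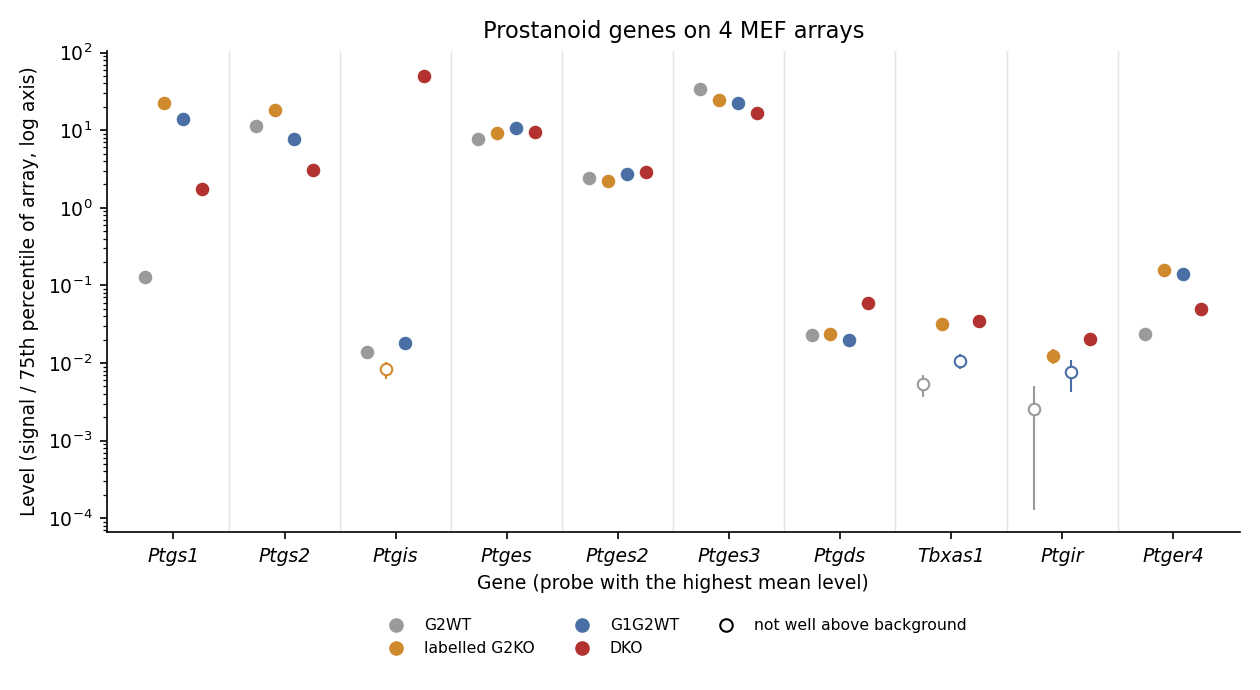
Level of each of the 10 genes on the 4 arrays (signal divided by the array's 75th percentile, log axis), with 1 point per array and bars for the scanner software's error, most of them smaller than the points. Open points were not well above background. Ptgis sits at 50.1 on DKO and below 0.02 on the other arrays, while Ptges2 lies between 2.21 and 2.85 on all 4.

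Of 21 other genes with probes within 500000 bases on either side (mm9), 20 had a ratio between DKO and G1G2WT, with a median of -0.24. Of these, 2 of 20 differed at least 4-fold, where 8.07% of all 22889 genes did, AY672066 with a limit of 2.92 and Snai1, a transcription factor of epithelial-mesenchymal transition, at -2.92. Around Ptgs1, 4 of 14 such genes with a ratio did (Morn5, Olfr335, Olfr340 and Ttll11), with a median of -0.30. Over the 4 arrays, among 19537 genes well above background on each of the 3 arrays where Ptgis was, the 5 named genes whose log2 levels, centred on each gene's mean, lay closest to those of Ptgis were Cpz, Gata4, Pon3, Hoxb6 and Spon2, at Euclidean distances between 2.92 and 3.68. All 5 had log2 ratios of DKO to G1G2WT between 7.66 and 8.50. The filter was then left out, with dim levels under the lowest level well above background raised to it. The closest of 24488 genes were then Upk1b, Wt1, Il33, Krt18 and Hoxb7, at distances between 1.51 and 2.62. The genes named thus depend on the filter.

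Mesothelial markers were higher on DKO than on G1G2WT, as Ptgis was. All 11 listed (Msln, Upk3b, Wt1, Krt8, Krt18, Krt19, Lrrn4, Upk1b, Gpm6a, Muc16 and Bnc1) were at least 4-fold higher on DKO than on G1G2WT. Of all genes with a ratio, 4.05% were. The summed level of the markers was 150 on DKO against 0.675 to 1.59 on the other arrays. Such a sum adds unlike probes, and Msln alone had a level of 100 on DKO. Upk3b, Wt1, Lrrn4, Upk1b and Gpm6a were dim on the other 3. Between labelled G2KO and G2WT, 3 of 6 with a ratio (Krt18, Krt19 and Bnc1) were at least 4-fold higher, where 3.71% of all genes were. Ptgis was not higher in that pair. Of 4 with a ratio between the wild types, Bnc1 was at least 4-fold higher on G1G2WT, where 4.63% of all genes were. Of 10 fibroblast markers, 4 were at least 4-fold lower on DKO (Pdgfra, Pdgfrb, Thy1 and Postn) and 1 higher (Dcn). Of all genes, 4.02% were lower and 4.05% higher. The summed levels of the fibroblast markers were 333 on DKO and 434 on G1G2WT. The part of these cell types in the Ptgis level was not tested, and in bulk RNA more cells of a type and more RNA per cell cannot be told apart. Markers of other cell types were read in the same way, beside the same shares of all genes for DKO. None of 3 endothelial markers with a ratio and none of 6 macrophage markers differed 4-fold, and the endothelial genes Cdh5, Tie1 and Emcn were dim on DKO. Acta2 and Tagln of 5 smooth muscle markers were lower on DKO, Gp9 of 3 platelet markers was lower, Tubb3 of 4 neural markers was lower, and Kit and Mcpt4 of 3 mast cell markers were higher, by at least 9.99-fold and 87.5-fold, while the mast cell protease Cpa3 was dim on all 4 arrays.

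**Figure D2:**
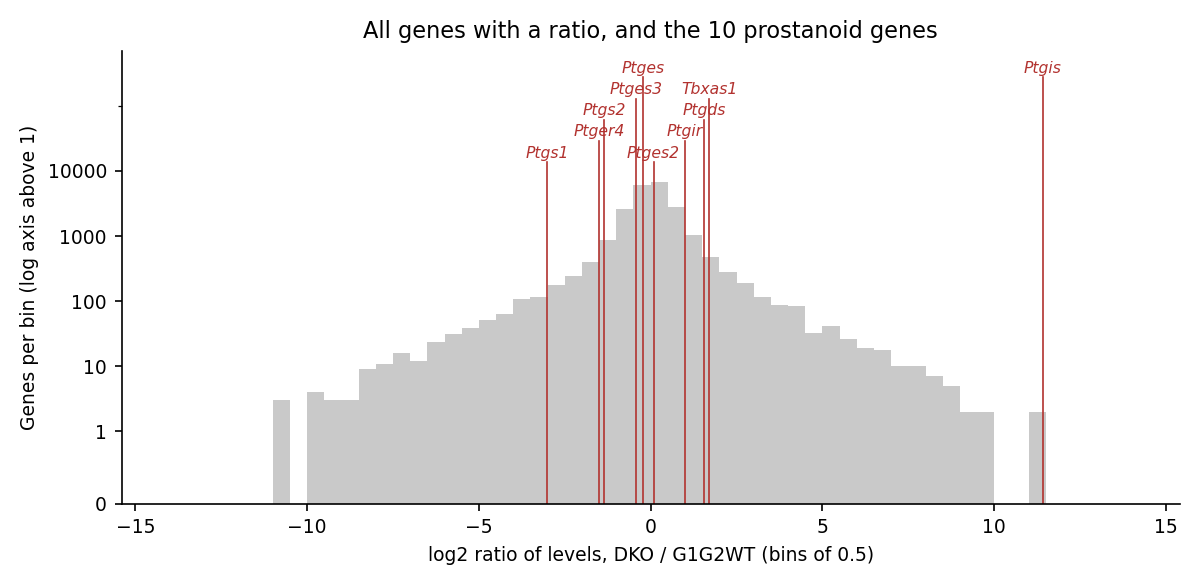
Number of genes (log axis above 1) by log2 ratio of DKO to G1G2WT in bins of 0.5, for the 22889 genes with a ratio or limit, with red lines at the 10 prostanoid genes. Ptgis lies at 11.42, at the right end, and the other 9 lie between -3.01 and 1.71.

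The cyclooxygenases are the enzymes one step before Ptgis. Ptgs1 was past 4-fold lower on DKO than on G1G2WT but not against G2WT, and Ptgs2 did not reach 4-fold. Ptgs1, the form most cells make constitutively, had a level of 1.74 on DKO, 14.0 on G1G2WT, 22.1 on the array labelled G2KO and 0.130 on G2WT. The array labelled G2KO and G1G2WT were high, DKO was intermediate and G2WT was low. DKO had a log2 ratio of -3.01 ± 0.20 to G1G2WT, 8.04-fold lower. The array labelled G2KO was higher than G2WT by 7.41 ± 0.20, or 170-fold, and this direction opposes the one in which the study lists Ptgs1 for G2KO MEFs. G1G2WT exceeded G2WT by 6.75, or 108-fold, in the same gene. Against G2WT, DKO was 13.4-fold higher in Ptgs1 rather than lower, so the sign depends on which wild type is used, and the array labelled G2KO was 1.58-fold above G1G2WT. G2WT carried summed neural markers of 30.6 against 1.98 to 3.78 on the other 3, with Nes alone at 28.0 on G2WT. Of 10 fibroblast markers, Pdgfra and Lum were dim on G2WT. The array labelled G2KO was at least 4-fold above G2WT in 5 of the 10, beside 3.71% of all genes. G1G2WT was that far above G2WT in 6, beside 4.63%, and none was lower in either pair. Col1a1 was highest on G2WT, at 54.3, and Fn1 had 66.8 on G2WT and 66.1 on the array labelled G2KO. The part of these neural and fibroblast markers in the Ptgs1 ratio was not tested.

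Ptgs2, the form that growth factors and cytokines induce, had 10 spots on each array, which measure the technical error. On DKO 9 spots were usable, with a lowest level of 2.88, a median of 3.01 and a highest of 3.21. On G1G2WT 9 spots ran from 7.53 through a median of 7.79 to 7.92. On the array labelled G2KO 10 spots ran from 17.3 through 18.2 to 19.0, and on G2WT 10 spots ran from 9.70 through 11.4 to 11.8. The spots of no pair of arrays overlapped, and the SD between them was 0.0276 to 0.0870 on the log2 scale. DKO was the lowest array and had a log2 ratio of -1.35 ± 0.07 to G1G2WT, 2.55-fold lower, which is under the 4-fold threshold. It was 3.70-fold below G2WT as well. The array labelled G2KO was 1.60-fold above G2WT, and the wild types differed by 1.45-fold. These spots repeat 1 RNA sample on 1 array, so their spread says nothing about cultures.

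The prostaglandin E synthases Ptges2 and Ptges3 differed little. Ptges2, a membrane-associated form, had levels of 2.85 on DKO, 2.68 on G1G2WT, 2.21 on the array labelled G2KO and 2.42 on G2WT, and the DKO ratio of 0.09 lay within its technical error of 0.20. Ptges3, the cytosolic form that is also the Hsp90 cochaperone p23, had 4 probes whose DKO ratios lay between -0.53 and -0.40. The most strongly hybridised of them had levels of 16.7 on DKO, 22.4 on G1G2WT, 24.3 on the array labelled G2KO and 33.9 on G2WT. DKO was the lowest of the 4 arrays on all 4 probes, and 50.5% of all genes had a ratio of DKO to G1G2WT at least as large in size as the -0.42 of this probe.

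Ptges, the inducible microsomal synthase that is coupled to Ptgs2, was read by 2 probes that did not give the same answer. They start at bases 364 and 3583 of the transcript, 3219 bases apart on the transcript and equally far apart on the minus strand of chromosome 2 (mm9), at chr2:30748214-30748273 (proximal) and chr2:30744995-30745054 (distal). No intron therefore lies between them by the files' own positions.

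Ptges, proximal probe, all 60 bases: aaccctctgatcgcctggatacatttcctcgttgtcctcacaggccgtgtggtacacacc

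Ptges, distal probe, last 30 bases: agtcagccccaATTAAAtgctttcctttat

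The distal probe, which ends near an ATTAAA, had levels of 9.33 on DKO, 10.8 on G1G2WT, 9.32 on the array labelled G2KO and 7.60 on G2WT. The DKO ratio of -0.21 was about as large as its technical error of 0.20. The proximal probe had levels of 0.385 on DKO, 0.0162 on G1G2WT, 0.0242 on the array labelled G2KO and 0.0186 on G2WT. DKO stood apart on that probe alone, 23.7-fold above G1G2WT (log2 ratio 4.57 ± 0.30). The proximal probe's signals were 30.4 on G1G2WT, 54.0 on the array labelled G2KO and 29.6 on G2WT. They passed as well above background but were low, and the fold rests on such a baseline. The probes thus differed by 4.78 in their log2 ratios. Of 4044 genes with at least 2 probes measured on both arrays, 102 (2.52%) had probes that differed at least 4-fold and 10 (0.247%) differed by as much as Ptges or more. In the ratio of labelled G2KO to G2WT the same probes differed by 0.08, and in that between the wild types by 0.71. The distal probe, with the higher mean level, was the one used in the counts.

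**Figure D3:**
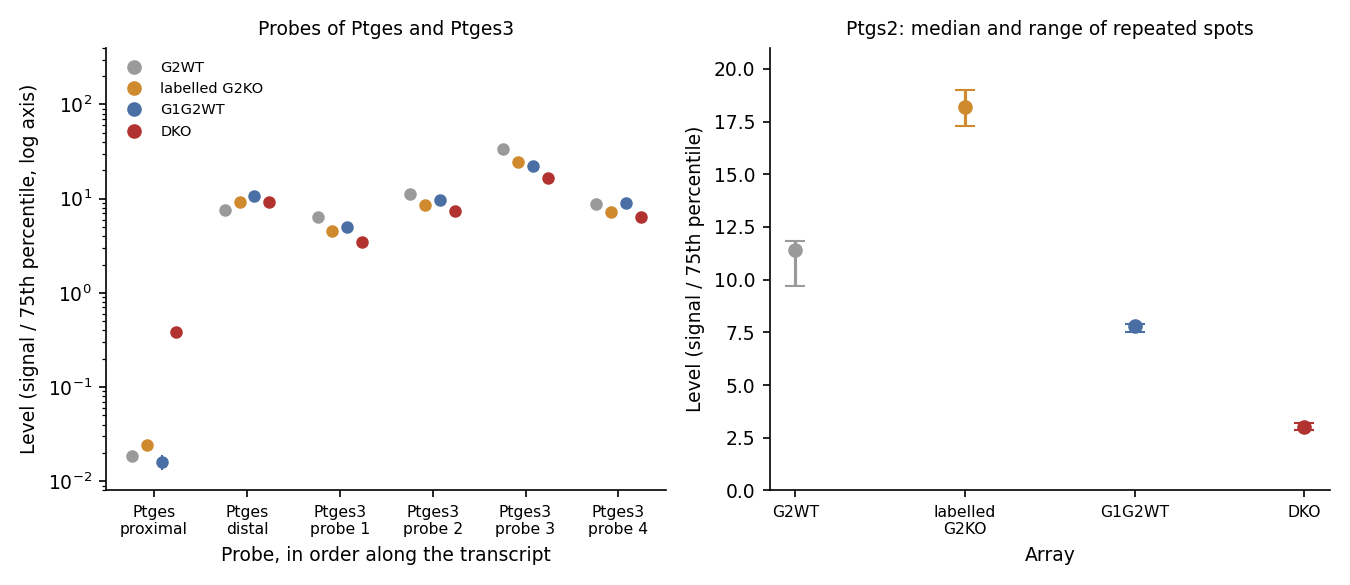
Left, level of each probe of Ptges and Ptges3 on the 4 arrays (log axis), in order along the transcript, with bars for the scanner software's error. Right, median and full range of the 9 or 10 spots of Ptgs2 on each array (linear axis from 0). DKO stands apart on the proximal Ptges probe, at 0.385, and not on the distal one, and the Ptgs2 spots of the 4 arrays do not overlap.

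The remaining terminal synthases gave low signals. Ptgds, which makes prostaglandin D2, had levels of 0.0588 on DKO, 0.0200 on G1G2WT, 0.0237 on the array labelled G2KO and 0.0232 on G2WT. DKO was the highest array, 2.94-fold above G1G2WT, and the other 3 lay close together. Tbxas1, the thromboxane synthase, had levels of 0.0351 on DKO and 0.0314 on the array labelled G2KO and was dim on G1G2WT and G2WT, at 0.0107 and 0.00536. DKO was at least 3.27-fold above G1G2WT and the array labelled G2KO at least 4.39-fold above G2WT. The higher pair were thus the arrays labelled as knockouts, at signals between 8.50 and 70.2 near the lower end of the array.

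The receptors were also weakly hybridised. Ptgir, the prostacyclin receptor, had levels of 0.0204 on DKO and 0.0124 on the array labelled G2KO and was dim on G1G2WT and G2WT, at 0.00765 and 0.00255. The limits were at least 1.99-fold for DKO and at least 1.73-fold for the array labelled G2KO, with technical errors of 0.68 and 1.47 on the log2 scale. Ptger4, a receptor for prostaglandin E2 that raises cyclic AMP, had levels of 0.0497 on DKO, 0.140 on G1G2WT, 0.157 on the array labelled G2KO and 0.0238 on G2WT. As with Ptgs1, the array labelled G2KO and G1G2WT were the high pair and G2WT was the lowest. DKO was 2.82-fold below G1G2WT, the array labelled G2KO was 6.58-fold above G2WT, and the wild types differed by 5.88-fold.

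Over the 10 genes, 2 differed at least 4-fold between DKO and G1G2WT (Ptgis higher, Ptgs1 lower), where 8.07% of all 22889 genes did (4.05% higher and 4.02% lower), and nothing is read from this count because the choice of genes used that contrast. Between labelled G2KO and G2WT, 3 of 10 were at least 4-fold higher (Ptgs1, Tbxas1 and Ptger4), against 3.71% of 22792 genes, and none was lower, with 5.73% of genes past 4-fold in either direction. With the labels exchanged the same 3 would be lower, against the same 3.71% of genes, since every sign would turn. With normexp Tbxas1 and Ptger4 fell short of 4-fold, with log2 values of 0.52 and 1.50. Between G1G2WT and G2WT, 2 of the 8 with a ratio differed that far, both higher on G1G2WT (Ptgs1 and Ptger4), against 7.39% of 22142 genes in either direction and 4.63% higher. Between the array labelled G2KO and G1G2WT, 0 of 10 did, against 2.3% of 21412 genes. These pairs share arrays and are not independent of each other. The median log2 ratio of the 10 was -0.06 for DKO beside 0.03 over all genes, and 0.49 for the array labelled G2KO beside -0.17 over all genes. The ratios of Ptges2, Ptges3 and Ptgds between labelled G2KO and G2WT were -0.13, -0.48 and 0.03.

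**Figure D4:**
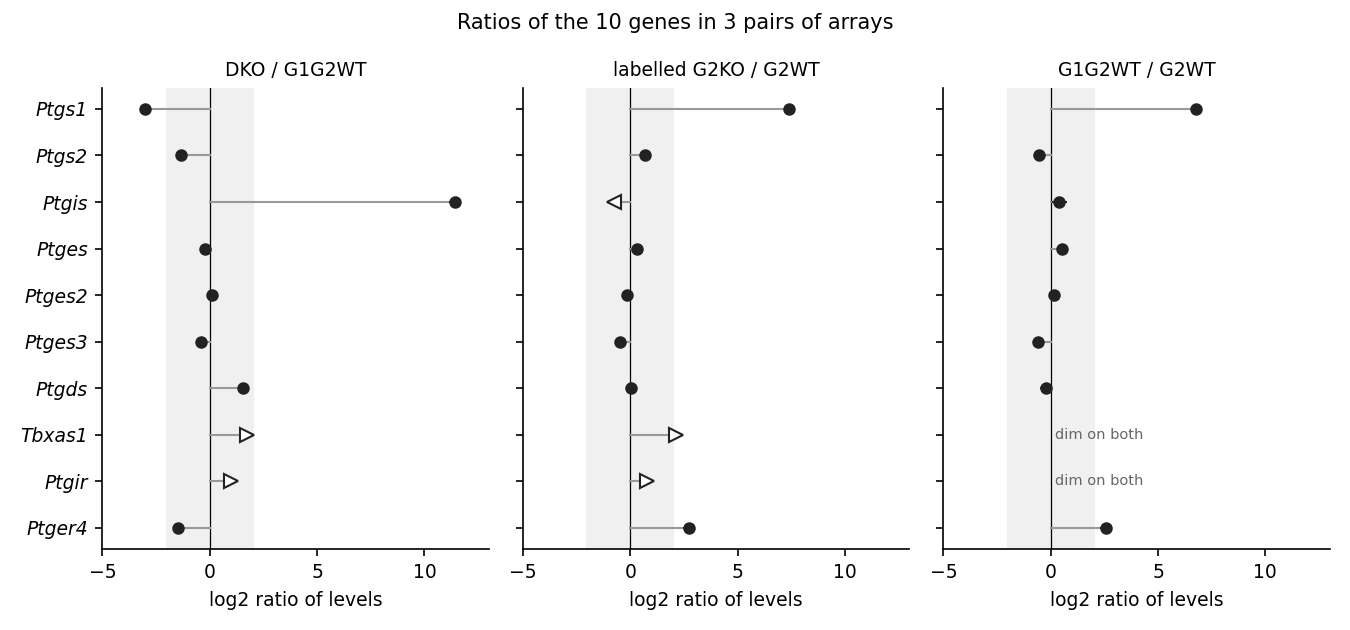
Log2 ratio of levels for the 10 genes in 3 pairs of arrays, with bars for the technical error of the spots (mostly smaller than the points) and the range under 4-fold shaded. Open triangles are limits pointing towards the larger difference. Ptgs1 lies at -3.01, 7.41 and 6.75 from left to right, and Tbxas1 and Ptgir were dim on both wild types.

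Beyond the 10 genes, 74 genes of 6 lists for neighbouring steps were on the array, and 60 had a ratio between DKO and G1G2WT. Of these, 7 were at least 4-fold higher and 4 lower on DKO, beside the 4.05% and 4.02% of all genes given above, with a median of 0.47 beside 0.03 over all genes. Between labelled G2KO and G2WT, 58 had a ratio, 5 were higher and 2 lower, beside 3.71% and 2.02% of all genes. The median was 0.07 beside -0.17 over all genes. The same shares stand beside the counts per list below.

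For the release of arachidonic acid, 14 of 17 genes had a DKO ratio, 1 was higher and 1 lower. Mgll, the lipase that breaks down 2-arachidonoylglycerol and so frees arachidonic acid, had a level of 0.0172 on DKO and of 2.64 to 3.87 on the other arrays, 225-fold lower on DKO than on G1G2WT. Dagla, which makes 2-arachidonoylglycerol, was 7.38-fold higher on DKO, at 1.91 against 0.259. Pla2g4a, the cytosolic phospholipase A2, had levels of 4.33 on DKO, 7.97 on G1G2WT, 6.49 on the array labelled G2KO and 1.82 on G2WT, and did not reach 4-fold in either knockout comparison.

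Of 8 other prostanoid synthases and reductases with a DKO ratio, 3 were higher and 1 lower. Mgst1, a microsomal glutathione transferase of the same protein family as Ptges, had levels of 5.57 on DKO, 2.54 on G2WT and 0.0254 on the array labelled G2KO, while it was dim on G1G2WT. It was at least 544-fold higher on DKO than on G1G2WT and 100.2-fold lower on the array labelled G2KO than on G2WT. The study itself lists Ptgis and Mgst1 for DKO, so their ratios are not independent evidence. The same holds for Aspn, Krt18, Wt1, Upk1b, Il33 and Hoxb7, named above, which the study also lists for DKO. It lists Ptgs1 for G2KO, for which its methods describe dye-swapped arrays, and whether that list came from these single-color arrays is not stated. Gstm2, another glutathione transferase, was 9.75-fold and Akr1b8, an aldo-keto reductase, 4.08-fold higher on DKO. Akr1c18, which reduces prostaglandins and progesterone, was 8.67-fold lower. Cbr3, a carbonyl reductase, was 6.89-fold higher on the array labelled G2KO than on G2WT, where its level was the lowest, at 0.568. G1G2WT exceeded G2WT in Cbr3 as well, by 7.62-fold. Hpgds, the haematopoietic prostaglandin D synthase, was dim on all 4 arrays.

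Of 8 other receptors with a DKO ratio, 1 was lower. Ptgfr, the receptor for prostaglandin F2 alpha, had a level of 0.198 on G1G2WT and 0.0774 on the array labelled G2KO and was dim on the other pair. DKO lay at least 27.1-fold below G1G2WT, and the array labelled G2KO at least 10.8-fold above G2WT, the same pair of high arrays as for Ptgs1 and Ptger4. Among 7 genes for breakdown and transport, Slco2a1, the prostaglandin transporter, had levels of 5.74 on DKO, 0.996 on G1G2WT, 0.963 on the array labelled G2KO and 0.0378 on G2WT, which made it 5.76-fold higher on DKO and 25.5-fold higher on the array labelled G2KO than on their wild types. Slco4a1, an organic anion transporter, was at least 45.8-fold lower on DKO and 53.1-fold higher on the array labelled G2KO.

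Of 12 genes of the lipoxygenase and leukotriene pathway with a DKO ratio, 2 were higher. The leukotriene receptor Cysltr1 was 45.9-fold higher on DKO, at 0.773 against 0.0168, and the epoxide hydrolase Ephx2 18.6-fold higher, at 0.635 against 0.0342. Alox5, which starts leukotriene synthesis, was well above background only on G2WT, at 0.0772, and the array labelled G2KO lay at least 11.7-fold below it. Among 11 inflammatory inducers of prostaglandin synthesis with a ratio, none differed 4-fold on DKO. Tlr4, the receptor for endotoxin, was 4.19-fold higher on the array labelled G2KO than on G2WT. G1G2WT exceeded G2WT in Tlr4 as well, by 4.04-fold. The cytokines Il1b and Tnf were dim on all 4 arrays, and the NF-kappaB inhibitor gene Nfkbia was 2.53-fold lower on DKO than on G1G2WT.

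**Figure D5:**
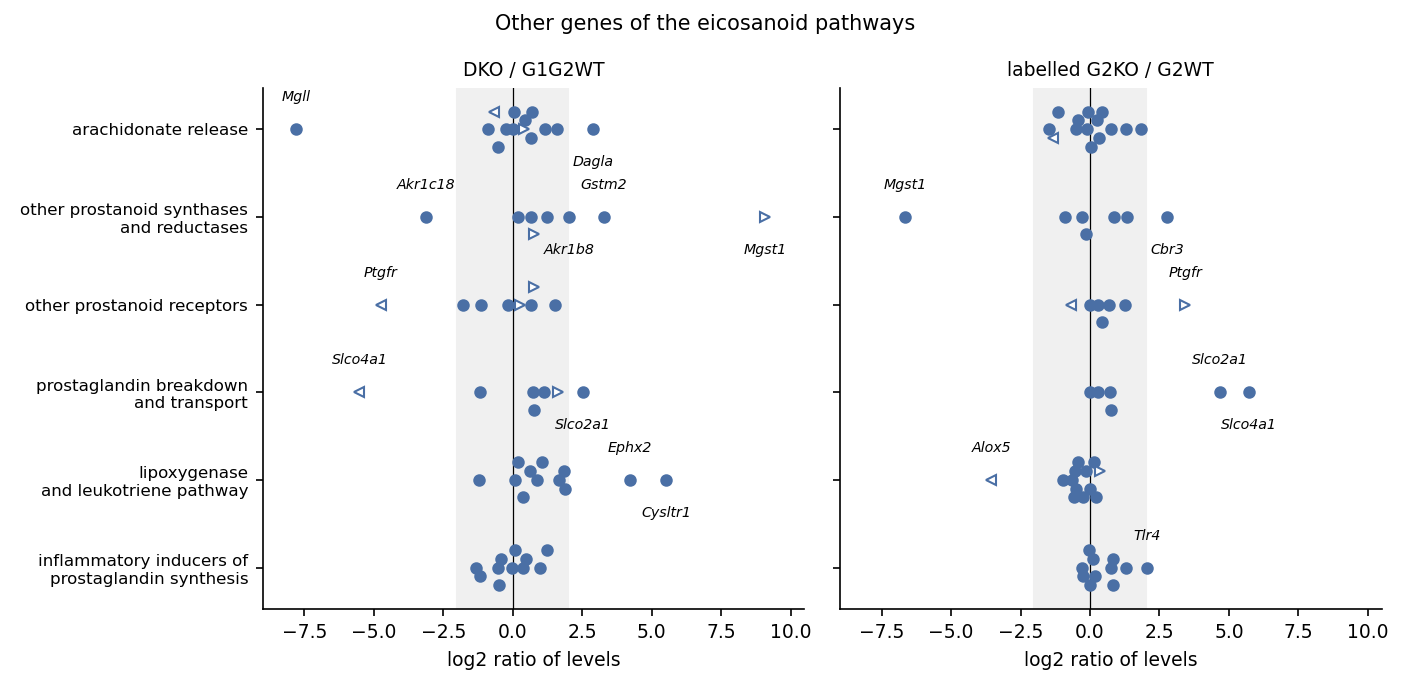
Log2 ratio of levels for the genes of 6 lists around prostanoid synthesis, for DKO over G1G2WT (left) and the array labelled G2KO over G2WT (right), with the range under 4-fold shaded and open triangles for limits. Points are shifted vertically only to keep them apart. Genes past 4-fold are named, and Mgst1, Ptgfr and Slco4a1 are past it in both panels, on opposite sides.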

How the data were processed

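Total RNA of 4 MEF preparations was labelled from an oligo-dT primer with Cy3 and hybridised to 4 single-color arrays on 1 slide. The deposited signal intensities came from Agilent's Feature Extraction (10.7.3.1 per the file headers, 10.5.1.1 per the submitters' processing notes), background-corrected by the authors within the array and not scaled between arrays. The deposited value table held the same intensities (largest log2 difference 0).

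From these, log2 intensity minus the log2 of the array's 75th percentile over non-control spots was computed, with control spots (1377) and outlier spots (107 to 140 per array) left out and spots of a probe averaged. Percentile signals were 1586 to 2234, and 65.0% to 72.2% of probes were well above background. No spot was saturated. A dim signal under the lowest level well above background on that array was raised to it, and a dim signal over that level was kept. Ratios with a dim signal are given as limits. Those of Ptgis for labelled G2KO over G2WT and of Tbxas1 for DKO over G1G2WT rest on kept signals. Genes take the probe with the highest mean level. The ratio code was tested on simulated data. The members and lists were chosen with earlier results of these data known. Named are all 10 members, genes of the pathway lists past 4-fold, the 5 genes most like Ptgis (transcript and clone identifiers left out), Ccng1 and Ccng2, and other listed genes chosen after their values were seen. Marker lists were mesothelial, fibroblast, endothelial, smooth muscle, macrophage, mast cell, platelet and neural. Names of all 14 probes matched RefSeq (GRCm38.p6), used for names only; positions are mm9 as in the files. Exon annotation was not used here. The alternatives were normexp (limma 3.58.1, R 4.3.3, offset 50), quantile and median scaling, no scaling, the deposited table, other filters and thresholds, other probes and the wild type of the other pair. Python 3.11.15, numpy 2.4.6 and pandas 2.3.3 were used. The number of arrays limits the precision.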

Additional observations from a re-analysis of the deposited data

Results flagged for a closer look

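In 6 members, the ratio of DKO to G1G2WT and the ratio of labelled G2KO to G2WT had opposite signs, and with 1 array per genotype the difference was not tested. The log2 ratios of Ptgs1 were -3.01 and 7.41, those of Ptger4 -1.50 and 2.72, and those of Ptgs2 -1.35 and 0.68. Ptgis had 11.42 and a limit of -0.74. The pairs of Ptges, -0.21 and 0.30, and of Ptges2, 0.0851 and -0.13, were small, beside technical errors of 0.20. In Ptgs1 and Ptger4 the wild types differed as well, with G1G2WT above G2WT by 6.75 and 2.56 on the log2 scale. The signs of the G2KO pair rest on its labels and would all turn if these were exchanged.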

How the results depend on the processing

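Of 74 values under alternatives, 62 lay close to the value reported (ratios within 1.04, the SD of log2 ratios between the wild types over all genes, and counts within 1.5 times), 10 moved further and 2 changed sign. Several of the 62 could not differ. The deposited table repeated the unscaled signals. Ptgis, Ptgs1 and Ptgs2 have 1 probe each, so a median over probes left their ratios as they were, and so did leaving out the filter and floor. The 62 is therefore no measure of robustness. Without the filter on background, an alternative chosen after seeing the data, 0 of the 5 genes most like Ptgis were the same. Ptgs1 in DKO reversed to 3.75 against G2WT and to 0.37 against the mean of both wild types, since G2WT had the low Ptgs1 level. With normexp, whose offset of 50 compresses low signals, Ptgis in DKO was 9.82, the count of members past 4-fold fell to 1 for labelled G2KO against G2WT and 1 between the wild types. A 2-fold threshold gave 6 members in DKO, and a 10-fold threshold gave 1 in each of the 3 comparisons. For the array labelled G2KO, 0 members passed against G1G2WT and 1 against the mean of both wild types. With the median over a gene's probes, or the probe nearest the transcript start (chosen after seeing the data), 3 members passed in DKO, with Ptges added. Ptgs2 in DKO stayed between -1.89 and -1.34, and Ptgis for labelled G2KO between -1.15 and -0.25. Without scaling, the median of all genes moved by 0.50 for labelled G2KO and by 0.25 between the wild types. No paired analysis was possible because each genotype has 1 array and the labels carry no replicate numbers, and no array could be left out. Low signals limit Tbxas1, Ptgir and the Ptgis baseline, and the slide holds all 4 arrays.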
